A study of Rattus norvegicus with 9 samples.

Results

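Collagen chain genes were examined in RNA-seq of left tibias from ovariectomized rats that climbed with a load (RE/Ovx), ovariectomized rats that did not exercise (NE/Ovx) and sham-operated rats (Sham), with 3 rats in each group. The members were all genes of the deposited count tables whose symbol reads Col, a number, the letter a and a number, with any count. There were 44 of them among 22589 listed genes. All were female Sprague-Dawley rats. The RE/Ovx and NE/Ovx rats had lost both ovaries, and the Sham rats, from which only fat near the ovary was taken, kept theirs. The rats were 9 weeks old on arrival and were operated on after 1 week of feeding, and RE/Ovx rats had 2 weeks of adaptive and 12 weeks of formal ladder training, in which the weight carried grew to 100% of the rat's own, and the bones of all groups were taken 24 weeks after the operation. The libraries came from whole bones freed of skin, muscles, ligaments and tendons, so each holds RNA of bone, cartilage and marrow together. Markers of skeletal muscle and of tendon and ligament were still detected in every group, as given below. Fewer cells of a type and less RNA per cell cannot be told apart. In the labels the rats are numbered 3, 5 and 8 in the RE/Ovx group, 6, 8 and 9 in the NE/Ovx group and 12, 7 and 8 in the Sham group, and values per rat follow this order. Each rat gave 1 library, and p values measure the spread between these rats.

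Collagens are secreted proteins in which 3 chains wind into a triple helix, and each chain has its own gene. Fibrillar chains form the banded fibrils of bone, skin and tendon, and type I collagen, made of the products of Col1a1 and Col1a2, is the main protein of bone matrix. Type II, IX, X and XI collagens belong to cartilage, including the growth plate, and type IV collagens form the sheet of basement membranes, as under the endothelium of blood vessels. FACIT collagens (fibril-associated collagens with interrupted triple helices) sit on the surface of fibrils. The members were grouped as 8 fibrillar, 7 cartilage, 6 basement membrane and 6 FACIT chains and 17 others, which include the beaded filaments of type VI, the membrane-bound chains and the short-chain type VIII. Each chain was counted in a single class. Chains of cartilage fibrils (types II and XI) and type IX chains on their surface were counted as cartilage, not as fibrillar or FACIT.

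Promoter sequences are shown for a pair of chains that lie head to head and rose together, for the chain with the smallest p values and for the partner chain of Col1a1. They come from RefSeq on the build GRCr8 and run from 250 bases before to 50 bases after the annotated start, while the deposited counts were made on Rnor_6.0. Of the 44 members, 35 had such a window. The windows of Col4a1 (chr16:84885347-84885646, plus strand) and Col4a2 (chr16:84885471-84885770, minus strand) share 176 bases, which are in capitals and read as reverse complements of each other.
Col4a1: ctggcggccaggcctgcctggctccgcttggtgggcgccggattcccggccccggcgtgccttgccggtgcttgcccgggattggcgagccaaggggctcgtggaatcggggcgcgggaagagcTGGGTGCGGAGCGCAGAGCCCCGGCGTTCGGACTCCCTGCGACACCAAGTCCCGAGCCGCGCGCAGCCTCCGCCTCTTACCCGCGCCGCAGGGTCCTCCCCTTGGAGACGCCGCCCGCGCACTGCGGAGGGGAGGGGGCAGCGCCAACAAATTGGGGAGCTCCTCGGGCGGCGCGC
Col4a2: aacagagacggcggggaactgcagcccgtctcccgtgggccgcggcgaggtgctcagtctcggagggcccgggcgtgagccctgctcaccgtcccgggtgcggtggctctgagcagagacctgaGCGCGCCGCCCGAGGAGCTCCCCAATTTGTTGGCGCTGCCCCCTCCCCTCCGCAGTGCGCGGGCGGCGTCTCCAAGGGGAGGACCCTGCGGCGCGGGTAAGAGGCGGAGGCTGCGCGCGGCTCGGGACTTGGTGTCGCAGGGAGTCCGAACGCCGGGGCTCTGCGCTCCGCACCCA
In the next pair of windows the capitals mark the letters of the searched motifs on either strand. The Col11a2 window (chr20:4817599-4817898, minus strand) held GGGCGG, and the Col1a2 window (chr4:33518307-33518606, plus strand) held CCAAT, read as ATTGG on the printed strand, and TATAAA.
Col11a2: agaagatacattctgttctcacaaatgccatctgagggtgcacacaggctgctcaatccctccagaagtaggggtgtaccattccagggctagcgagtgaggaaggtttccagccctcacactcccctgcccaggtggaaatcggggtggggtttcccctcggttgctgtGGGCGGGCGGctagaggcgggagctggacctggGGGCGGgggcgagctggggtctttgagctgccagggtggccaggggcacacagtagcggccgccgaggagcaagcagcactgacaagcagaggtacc
Col1a2: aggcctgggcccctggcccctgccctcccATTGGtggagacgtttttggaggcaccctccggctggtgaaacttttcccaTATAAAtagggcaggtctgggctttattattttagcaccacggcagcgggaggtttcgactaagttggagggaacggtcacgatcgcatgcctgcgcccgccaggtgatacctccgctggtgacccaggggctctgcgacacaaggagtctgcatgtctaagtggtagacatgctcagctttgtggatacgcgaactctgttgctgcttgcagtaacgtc
GGGCGG, the core of a GC box, was found on either strand in 19 of the 35 collagen genes with a window (54.3%), and in 33.1% of all 33469 windows of the table. CCAAT was found in 11 of 35 (31.4%) against 37.5% of all windows, TATAAA in 4 (11.4%) against 14.2%, and ACAAT, a core bound by SOX factors, in 4 (11.4%) against 33.7%. The windows of Col4a3 and Col4a4, another head-to-head pair, shared 88 bases. These matches describe letters in a window and are not binding sites.

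The counts summed to between 12967456 and 14946389 per RE/Ovx library, between 13568808 and 16671533 per NE/Ovx library and between 12297992 and 15123988 per Sham library. Of 14520 genes with enough counts to be tested, 41 were collagen chains. The other 3, Col4a6, Col23a1 and Col26a1, had 28, 5 and 62 counts over all 9 rats and are left out of every count below. Levels are given as FPKM, the authors' unit that scales fragments to gene length and library size, so that chains can be set side by side. Fold changes are log2 ratios of normalised counts from edgeR's quasi-likelihood test, and a chain was called where the p value adjusted over all tested genes by the method of Benjamini and Hochberg was under 0.05.

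Collagen chains took 2.27%, 3.76% and 2.97% of all counts in RE/Ovx rats, 2.12%, 3.40% and 2.79% in NE/Ovx rats and 0.956%, 0.849% and 1.14% in Sham rats. The lowest library of either ovariectomized group stood above the highest Sham library. Col1a1 alone made up 67.8 ± 1.70% of the collagen counts in the RE/Ovx group, 70.1 ± 1.33% in the NE/Ovx group and 59.2 ± 5.64% in the Sham group (SD, n = 3 each). Fibrillar chains held 83.3 ± 1.27% of the collagen FPKM in RE/Ovx rats, 83.6 ± 0.866% in NE/Ovx rats and 77.1 ± 2.11% in Sham rats. Without Col1a1, the fibrillar share was 46.4 ± 4.13%, 42.6 ± 2.32% and 41.1 ± 12.3% in the RE/Ovx, NE/Ovx and Sham groups, and these ranges overlapped.

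**Figure D1:**
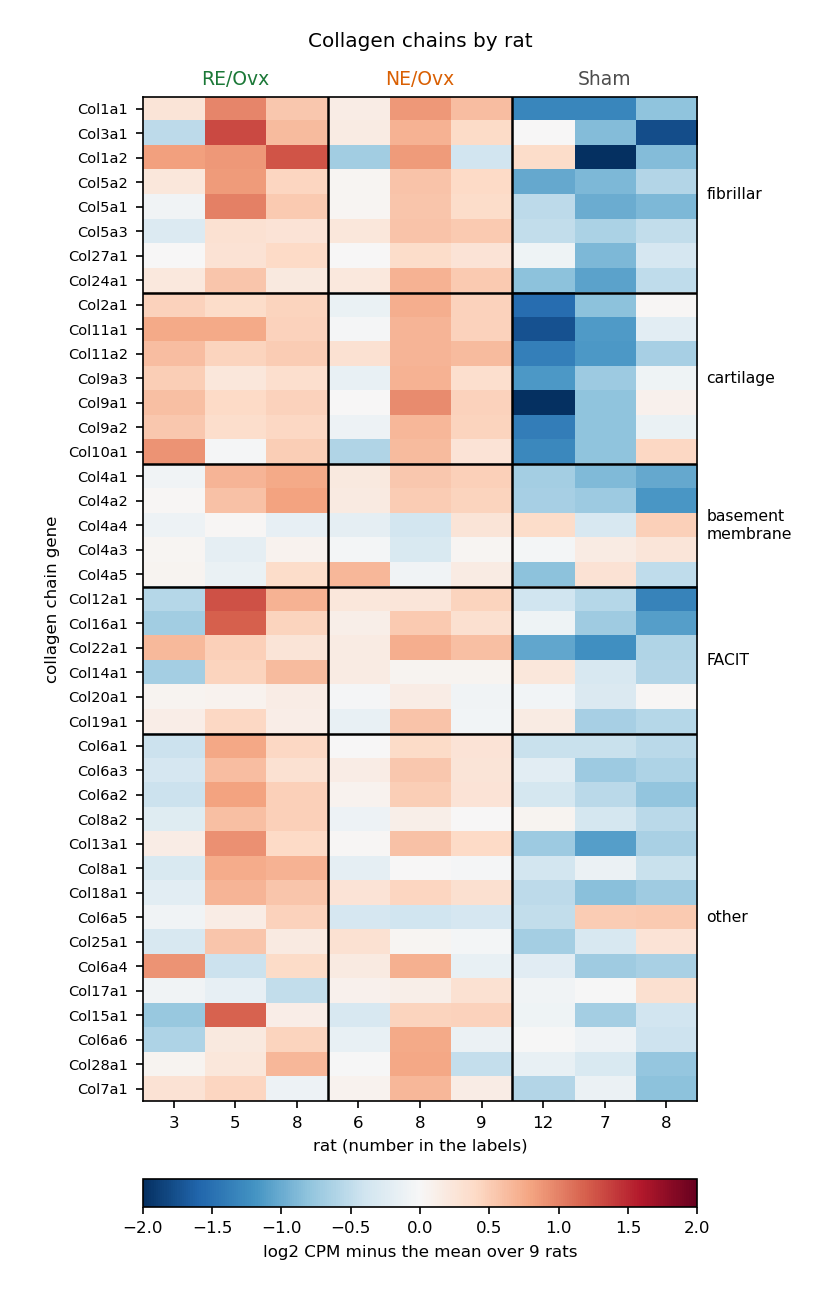
Level of each tested collagen chain (rows, by class) in each rat (columns, by group), as log2 CPM (counts scaled to library size) minus the mean of that chain over the 9 rats. Most rows are red in RE/Ovx and NE/Ovx rats and blue in Sham rats, and the cartilage rows of Sham rat 12 are the darkest block.

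Compared with the Sham group, 10 of 41 tested chains rose in the NE/Ovx group (24.4%) and 0 fell, where 1.03% of all tested genes rose and 0.2% fell. By class these were 4 of 8 fibrillar, 1 of 7 cartilage, 2 of 5 basement membrane and 1 of 6 FACIT chains and 2 of 15 others. Compared with the Sham group, 13 of 41 chains rose in the RE/Ovx group (31.7%) and 0 fell, where 5.0% of all tested genes rose and 3.06% fell. These were 5 of 8 fibrillar, 3 of 7 cartilage, 2 of 5 basement membrane and 1 of 6 FACIT chains and 2 of 15 others. At an unadjusted p under 0.05, 1 chain (Col6a5) was lower in NE/Ovx rats (8.57% of all tested genes) and 0 were lower in RE/Ovx rats (11.1%). At an adjusted p under 0.05, DESeq2 called 0 chains lower in both groups. Both comparisons share the Sham rats. The median log2 fold change over the 41 chains was 0.84 for NE/Ovx against Sham and 0.92 for RE/Ovx against Sham, while the median over all tested genes was 0.003 and -0.008. Of the 41 chains, 22 stood higher without overlap in NE/Ovx than in Sham rats (13.9% of all tested genes) and 0 lower (11.4%). In RE/Ovx rats 22 likewise stood higher (14.9%) and 0 lower (13%). A log2 fold change above 0 was seen for 38 of 41 chains in NE/Ovx (50.4% of all tested genes) and 37 in RE/Ovx rats (48.9%) against Sham.

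For NE/Ovx against Sham the number of chains that passed changed with single rats left out, while the fold changes of the called chains moved little. Those of some chains not called moved more, from 0.022 to 1.46 for Col1a2, 0.79 to 1.67 for Col3a1 and 0.98 to 1.80 for Col11a1. Without Sham rat 12, Sham rat 7, NE/Ovx rat 8 or NE/Ovx rat 9, 1 chain passed each time, and the number of all genes that rose was 24, 30, 7 and 8 in that order, where it was 149 with every rat. Col11a2 alone passed with every rat left out in turn. The log2 fold change with 1 rat left out ran from 1.53 to 1.88 for Col1a1, 1.19 to 1.36 for Col4a1, 1.31 to 1.65 for Col22a1 and 0.92 to 1.08 for Col5a3, and the median over the 41 chains ran from 0.706 to 0.945. For RE/Ovx against Sham the number of chains was 7 without RE/Ovx rat 5, 8 without RE/Ovx rat 8, 8 without Sham rat 7 and 22 without RE/Ovx rat 3, and the number of all genes that rose was 79, 67, 320 and 1205 in that order, where it was 726 with every rat. The median over the 41 chains ran from 0.84 to 1.04. With every rat left out in turn, 7 of the 13 chains kept their call, namely Col11a2, Col13a1, Col1a1, Col22a1, Col4a1, Col4a2 and Col5a2.

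Compared with the NE/Ovx group, 0 of 41 chains rose and 0 fell in the RE/Ovx group, where 0.0% of all tested genes passed in either direction. At an unadjusted p under 0.05, 1 of 41 chains (2.44%) and 5.28% of all tested genes differed. At an adjusted p under 0.05, DESeq2 also called 0 chains. The log2 fold change was above 0 for 30 of 41 chains (51.8% of all tested genes) and had a median of 0.08, with a range of -0.41 for Col17a1 to 0.91 for Col1a2. The intervals of this comparison bound the difference more closely for some leading chains than for others. For Col1a1 the 95% interval ran from -0.51 to 0.59, for Col11a2 from -0.40 to 0.35 and for Col4a1 from -0.34 to 0.52 on the log2 scale. Wider intervals were those of Col1a2 (-0.35 to 2.16), Col3a1 (-0.83 to 1.28) and Col12a1 (-0.50 to 1.19).

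**Figure D2:**
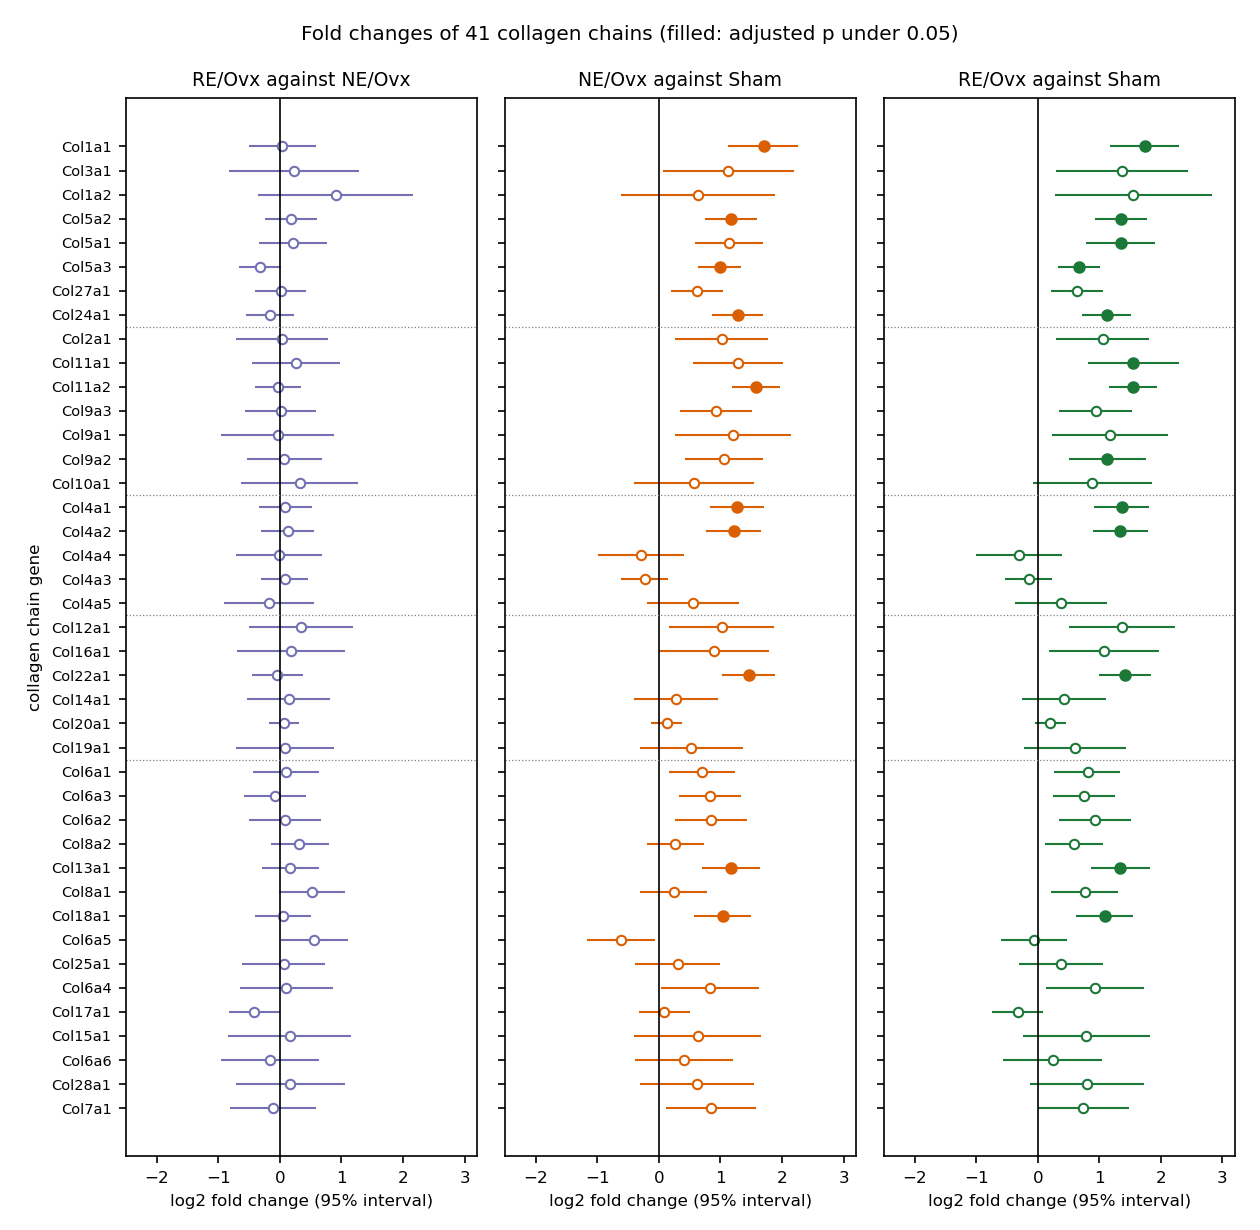
Log2 fold change of each of the 41 tested collagen chains (rows, by class) with its 95% interval, for RE/Ovx against NE/Ovx, NE/Ovx against Sham and RE/Ovx against Sham; filled points have an adjusted p under 0.05. Filled points number 0, 10 and 13 in the panels from left to right, all of them above 0.

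Among fibrillar chains, Col1a1 rose in both ovariectomized groups. Col1a1, the chain that supplies 2 of the 3 strands of type I collagen, stood at 2694, 4397 and 3357 FPKM in RE/Ovx rats, 2489, 4141 and 3389 FPKM in NE/Ovx rats and 877, 864 and 1271 FPKM in Sham rats. Every RE/Ovx and NE/Ovx rat was above every Sham rat, and the ovariectomized groups overlapped. Its log2 fold change was 1.74 ± 0.26 for RE/Ovx against Sham (SE, edgeR adjusted p = 0.0102), and NE/Ovx against Sham gave 1.70 ± 0.25 (adjusted p = 0.0235).

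Col1a2, which encodes the other strand of type I collagen, varied more from rat to rat than Col1a1. It stood at 180, 186 and 253 FPKM in RE/Ovx rats, 62.4, 186 and 77.0 FPKM in NE/Ovx rats and 127, 20.8 and 55.1 FPKM in Sham rats. The highest Sham rat was 6.09 times the lowest, and the NE/Ovx and Sham groups overlapped. Its log2 fold change was 0.64 ± 0.56 for NE/Ovx against Sham and 1.55 ± 0.57 for RE/Ovx against Sham (edgeR adjusted p = 0.555 and 0.122), and its pooled SD within groups, 0.895 on the log2 CPM scale, was the largest of the 41 chains. Leaving out 1 rat moved it widely. The lowest value for NE/Ovx against Sham was 0.022, when NE/Ovx rat 8 was left out, and the highest was 1.46, when Sham rat 12 was. For RE/Ovx rats the comparison with Sham gave at least 1.12, with Sham rat 7 absent, and at most 2.38, with Sham rat 12 absent, which was the only rat whose absence let Col1a2 pass (edgeR adjusted p = 0.041). Between RE/Ovx and NE/Ovx rats, whose ranges overlapped, the log2 fold change was 0.91, with an interval of -0.35 to 2.16 (edgeR adjusted p = 0.968). This value dropped to 0.63 if NE/Ovx rat 6 was removed and grew to 1.53 if NE/Ovx rat 8 was. The median pooled SD was 0.373 over the chains and 0.196 over all tested genes.

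Type V collagen is built into type I fibrils and limits their width. Col5a2 stood at 97.1, 150 and 116 FPKM in RE/Ovx rats, 85.0, 124 and 108 FPKM in NE/Ovx rats and 39.4, 42.7 and 54.3 FPKM in Sham rats, with no overlap with Sham. Its log2 fold change was 1.35 ± 0.19 for RE/Ovx against Sham and 1.18 ± 0.19 for NE/Ovx against Sham (edgeR adjusted p = 0.00907 and 0.0265). Col5a1 stood at 52.5, 111 and 82.4 FPKM in RE/Ovx rats, 56.6, 82.2 and 70.2 FPKM in NE/Ovx rats and 37.0, 26.5 and 29.1 FPKM in Sham rats. Neither ovariectomized group overlapped with Sham, yet Col5a1 passed for RE/Ovx against Sham (log2 fold change 1.35 ± 0.25, edgeR adjusted p = 0.0170) and not for NE/Ovx against Sham (1.14 ± 0.25, adjusted p = 0.0596). Whether these changes differ is answered by RE/Ovx against NE/Ovx, where the difference was 0.21 with an interval of -0.34 to 0.76.

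Col5a3, the third type V chain, stood at 7.32, 11.0 and 11.1 FPKM in RE/Ovx rats, 10.4, 13.3 and 12.5 FPKM in NE/Ovx rats and 6.09, 5.48 and 6.22 FPKM in Sham rats. It rose in both comparisons with Sham, by 0.66 ± 0.16 in RE/Ovx rats and 0.99 ± 0.16 in NE/Ovx rats on the log2 scale (edgeR adjusted p = 0.0326 and 0.0240). Col24a1, a fibrillar chain expressed in developing bone in mice, stood at 4.49, 5.68 and 4.56 FPKM in RE/Ovx rats, 4.47, 6.29 and 5.48 FPKM in NE/Ovx rats and 2.12, 1.73 and 2.68 FPKM in Sham rats. Both ovariectomized groups were above every Sham rat, with log2 fold changes of 1.12 ± 0.18 for RE/Ovx and 1.28 ± 0.18 for NE/Ovx against Sham (edgeR adjusted p = 0.0129 and 0.0213). Col3a1, the chain of type III collagen of soft tissue and vessel walls, stood at 135, 486 and 311 FPKM in RE/Ovx rats, 217, 317 and 249 FPKM in NE/Ovx rats and 189, 101 and 55.8 FPKM in Sham rats. RE/Ovx rat 3 lay below Sham rat 12, and neither comparison with Sham passed (edgeR adjusted p = 0.111 for RE/Ovx and 0.219 for NE/Ovx).

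**Figure D3:**
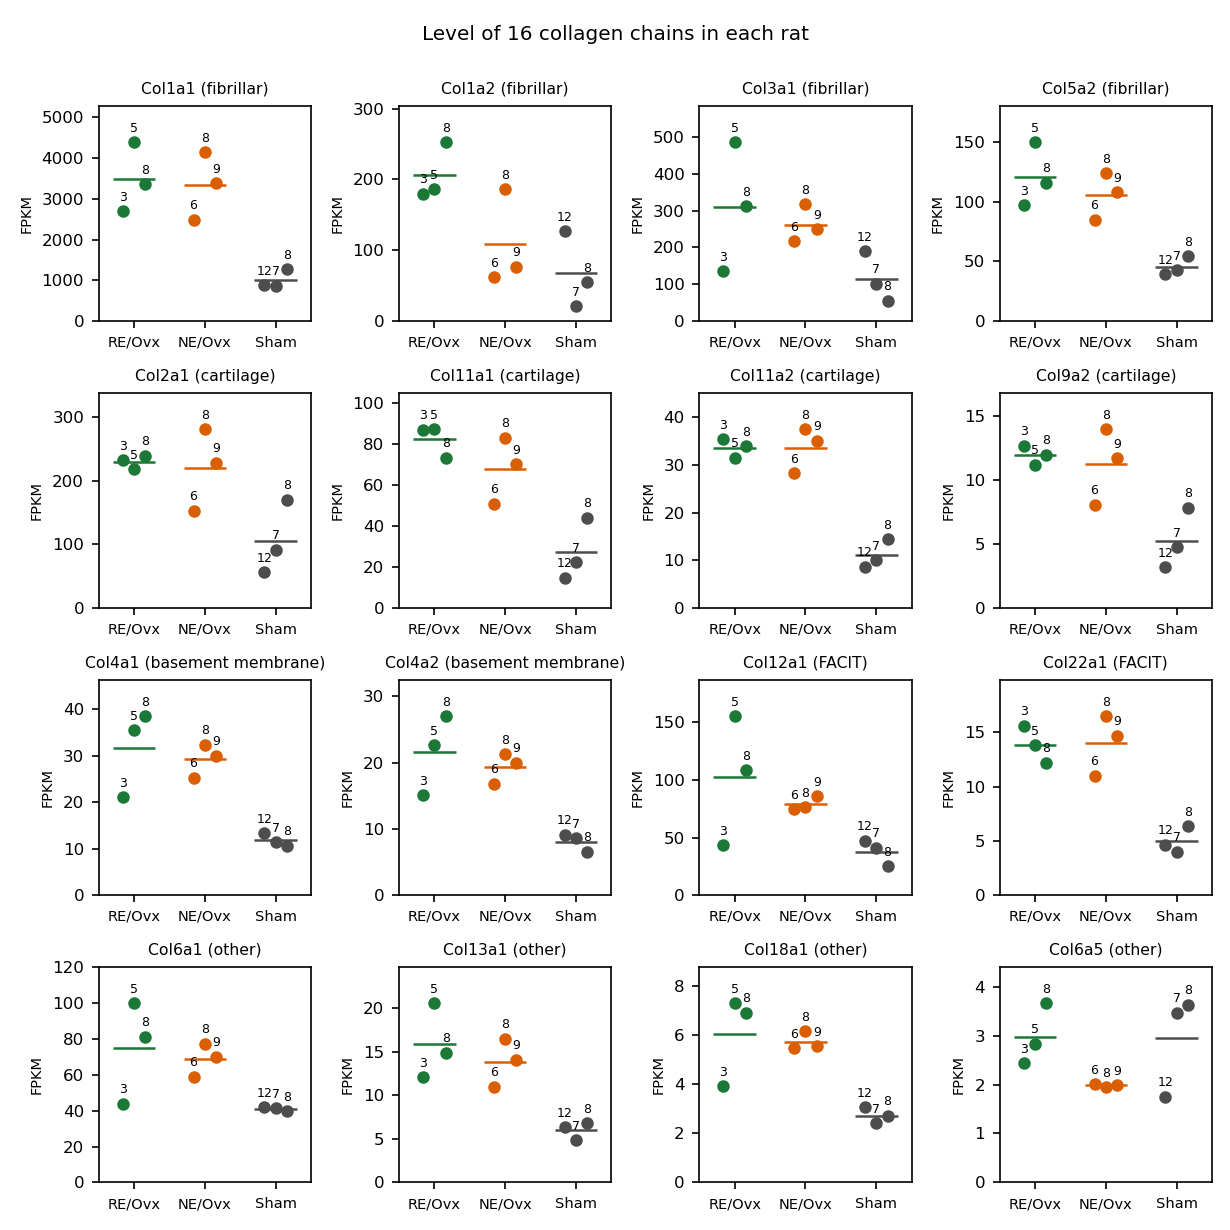
FPKM of 16 collagen chains in each rat, by group from left to right RE/Ovx, NE/Ovx and Sham; each point is 1 rat with its number, the line is the group mean and each axis starts at 0. For Col1a1 the Sham rats reach 1271 FPKM at most and every other rat lies at 2489 FPKM or more.

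Among cartilage chains, Col11a2 had the smallest p values of all 41 chains in both comparisons with Sham. Col11a2, a chain of type XI collagen inside the thin fibrils of cartilage, stood at 35.4, 31.5 and 33.9 FPKM in RE/Ovx rats, 28.3, 37.5 and 35.1 FPKM in NE/Ovx rats and 8.71, 10 and 14.4 FPKM in Sham rats. The groups of ovariectomized rats lay well apart from Sham and overlapped with each other. Its log2 fold change was 1.55 ± 0.17 for RE/Ovx against Sham and 1.57 ± 0.17 for NE/Ovx against Sham (edgeR adjusted p = 0.00377 and 0.00785).

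Col11a1, its partner chain, stood at 87.2, 87.5 and 73.5 FPKM in RE/Ovx rats, 51.0, 83.2 and 70.2 FPKM in NE/Ovx rats and 14.9, 22.6 and 44.3 FPKM in Sham rats. It passed for RE/Ovx against Sham (log2 fold change 1.55 ± 0.33, edgeR adjusted p = 0.0245) and not for NE/Ovx against Sham (1.29 ± 0.33, adjusted p = 0.0823). Col9a2, a chain of the type IX collagen on the surface of cartilage fibrils, stood at 12.7, 11.2 and 12 FPKM in RE/Ovx rats, 8.09, 14 and 11.7 FPKM in NE/Ovx rats and 3.2, 4.75 and 7.85 FPKM in Sham rats. It likewise passed for RE/Ovx against Sham only (1.13 ± 0.28, edgeR adjusted p = 0.0395, against 1.06 ± 0.28 and 0.0883 for NE/Ovx), and for both chains the difference between RE/Ovx and NE/Ovx rats was not called.

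Col2a1, the main chain of cartilage fibrils, stood at 232, 218 and 239 FPKM in RE/Ovx rats, 153, 281 and 228 FPKM in NE/Ovx rats and 56.7, 91.6 and 170 FPKM in Sham rats. Sham rat 8 lay within the NE/Ovx range, and the comparisons with Sham did not pass (edgeR adjusted p = 0.0834 and 0.138 in RE/Ovx and NE/Ovx rats). Col10a1, which marks hypertrophic chondrocytes of the growth plate, stood at 9.55, 5.06 and 7.43 FPKM in RE/Ovx rats, 3.34, 8 and 6.06 FPKM in NE/Ovx rats and 2.02, 2.77 and 6.70 FPKM in Sham rats. Its ranges overlapped in every comparison. In the Sham group all 7 cartilage chains were lowest in rat 12 and highest in rat 8, and in the NE/Ovx group all 7 were lowest in rat 6 and highest in rat 8.

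Among basement membrane chains, Col4a1 and Col4a2 rose and the other 3 tested chains did not pass. Col4a1 and Col4a2 make the common type IV trimer, and their genes share the promoter region printed above. Col4a1 stood at 21.1, 35.5 and 38.5 FPKM in RE/Ovx rats, 25.3, 32.4 and 30.0 FPKM in NE/Ovx rats and 13.3, 11.4 and 10.7 FPKM in Sham rats. Col4a2 stood at 15.1, 22.6 and 27.0 FPKM in RE/Ovx rats, 16.8, 21.3 and 20 FPKM in NE/Ovx rats and 9.12, 8.62 and 6.58 FPKM in Sham rats. Both chains were above every Sham rat in every ovariectomized rat. The log2 fold changes for RE/Ovx against Sham were 1.36 ± 0.20 for Col4a1 and 1.34 ± 0.20 for Col4a2 (edgeR adjusted p = 0.0102 and 0.0113), and those for NE/Ovx against Sham were 1.27 ± 0.20 and 1.22 ± 0.20 (adjusted p = 0.0240 and 0.0265).

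Col4a3 and Col4a4, whose chains join Col4a5 in the basement membrane of the kidney glomerulus, were not called in any comparison. Col4a3 stood at 1.35, 1.15 and 1.43 FPKM in RE/Ovx rats, 1.27, 1.06 and 1.32 FPKM in NE/Ovx rats and 1.23, 1.41 and 1.54 FPKM in Sham rats. Its log2 fold change was -0.15 for RE/Ovx against Sham, with an interval of -0.53 to 0.23, and -0.23 for NE/Ovx against Sham, with an interval of -0.61 to 0.15. Col4a4 gave -0.30 and -0.29 for the same comparisons (edgeR adjusted p = 0.598 and 0.638), and its FPKM rests on a gene model 0.198 times as long as that of Col1a1.

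Among the 6 chains counted as FACIT, Col22a1, a chain found at tissue junctions such as that of muscle and tendon, was the only called chain. It stood at 15.6, 13.8 and 12.2 FPKM in RE/Ovx rats, 11.0, 16.5 and 14.7 FPKM in NE/Ovx rats and 4.65, 4 and 6.37 FPKM in Sham rats. The ovariectomized rats lay above every Sham rat, by 1.41 ± 0.19 in RE/Ovx rats and 1.46 ± 0.19 in NE/Ovx rats on the log2 scale (edgeR adjusted p = 0.00810 and 0.0170). Col12a1, which decorates type I fibrils, stood at 43.4, 155 and 108 FPKM in RE/Ovx rats, 74.6, 76.4 and 85.5 FPKM in NE/Ovx rats and 47.3, 41.2 and 25.1 FPKM in Sham rats. RE/Ovx rat 3 lay within the Sham range, and Col12a1 missed the threshold for RE/Ovx against Sham (1.37 ± 0.39, edgeR adjusted p = 0.0583). Col16a1 showed the same low RE/Ovx rat 3, at 13.3 FPKM against 49.2 and 30.3 FPKM in rats 5 and 8.

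Among the other chains, Col13a1 and Col18a1 rose in both ovariectomized groups. Col13a1, a membrane-bound collagen of cell adhesion sites, stood at 12.1, 20.6 and 14.9 FPKM in RE/Ovx rats, 11.0, 16.5 and 14.1 FPKM in NE/Ovx rats and 6.33, 4.84 and 6.83 FPKM in Sham rats. Col18a1, the source of endostatin, stood at 3.91, 7.29 and 6.91 FPKM in RE/Ovx rats, 5.45, 6.15 and 5.55 FPKM in NE/Ovx rats and 3.05, 2.40 and 2.71 FPKM in Sham rats. Neither chain overlapped with Sham. The log2 fold changes for RE/Ovx against Sham were 1.34 ± 0.21 for Col13a1 and 1.09 ± 0.21 for Col18a1 (edgeR adjusted p = 0.0121 and 0.0183), and those for NE/Ovx against Sham were 1.17 ± 0.21 and 1.04 ± 0.21 (adjusted p = 0.0335 and 0.0463).

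The type VI chains, which assemble into beaded filaments around cells, did not pass. Col6a1 stood at 43.9, 100 and 81.4 FPKM in RE/Ovx rats, 58.9, 77.4 and 70.2 FPKM in NE/Ovx rats and 42.1, 41.4 and 39.8 FPKM in Sham rats. Each ovariectomized rat was above each Sham rat, and the edgeR adjusted p was 0.0667 for RE/Ovx and 0.146 for NE/Ovx against Sham. Col6a2 and Col6a3 gave log2 fold changes of 0.92 and 0.75 for RE/Ovx against Sham and 0.84 and 0.83 for NE/Ovx against Sham, with edgeR adjusted p values between 0.0591 and 0.121. Col6a5, another type VI chain, was the only chain with an unadjusted p under 0.05 for RE/Ovx against NE/Ovx. It stood at 2.43, 2.83 and 3.66 FPKM in RE/Ovx rats, 2.01, 1.95 and 1.98 FPKM in NE/Ovx rats and 1.75, 3.47 and 3.63 FPKM in Sham rats. The RE/Ovx and NE/Ovx groups did not overlap, the log2 fold change was 0.56 ± 0.24 (edgeR adjusted p = 0.924), and Sham rat 12 lay below all other rats. It was 1 of 41 chains that stood higher without overlap in RE/Ovx than in NE/Ovx rats (4.75% of all tested genes), and Col17a1 was the 1 that stood lower (6.84% of all tested genes).

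Chains of 1 trimer kept close ratios in some pairs and not in others. The FPKM ratio of Col4a2 to Col4a1 was 0.718, 0.635 and 0.701 in RE/Ovx rats, 0.664, 0.658 and 0.668 in NE/Ovx rats and 0.685, 0.757 and 0.614 in Sham rats. The ratio of Col1a2 to Col1a1 was 0.0669, 0.0423 and 0.0753 in RE/Ovx rats, 0.0251, 0.0448 and 0.0227 in NE/Ovx rats and 0.144, 0.0241 and 0.0433 in Sham rats. In every rat this was far below the proportion of these chains in the trimer. Whether Col1a2 was counted in full was not tested, so its ratio and spread may not give the true ones. The highest Sham rat had 6 times the lowest for Col1a2 to Col1a1 and 1.23 times the lowest for Col4a2 to Col4a1. The 10 pairs tested also included chains of different collagen types, such as Col10a1 to Col2a1. Over 10 pairs and 3 comparisons, 30 exact two-sided permutation tests gave adjusted p values of 0.857 or more, and with 3 rats against 3 the smallest p is 0.1. That smallest p was reached by Col9a2 to Col9a3 in both comparisons with Sham (log2 differences of 0.22 for RE/Ovx and 0.17 for NE/Ovx) and by Col10a1 to Col2a1 for NE/Ovx against Sham (-0.45).

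**Figure D4:**
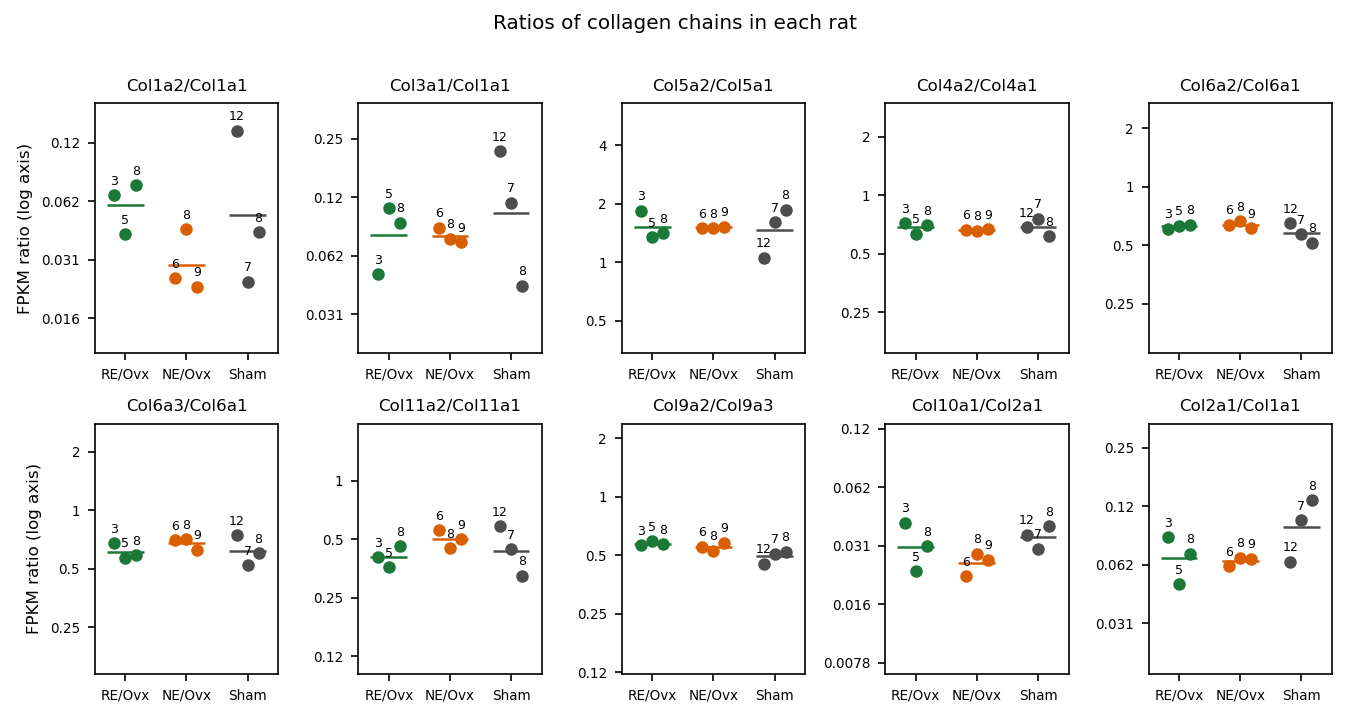
FPKM ratio of 10 pairs of collagen chains in each rat on a log axis of the same span in every panel; each point is 1 rat with its number and the line is the geometric mean of the group. The ratio of Col4a2 to Col4a1 stays between 0.614 and 0.757, while that of Col1a2 to Col1a1 runs from 0.0227 to 0.144.

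Enzymes and partners that make, bind and cut collagen were described from 4 lists of 54 genes, of which 51 were tested. For RE/Ovx against Sham 19 rose (37.3%) and 3 fell (5.88%), where 5.0% of all tested genes rose and 3.06% fell. For NE/Ovx against Sham 5 rose (9.8%) and 0 fell, where 1.03% of all tested genes rose and 0.2% fell, and for RE/Ovx against NE/Ovx 0 passed. Serpinh1, the collagen chaperone of the endoplasmic reticulum, stood at 88.7, 155 and 141 FPKM in RE/Ovx rats, 93.8, 140 and 124 FPKM in NE/Ovx rats and 52.8, 54.7 and 60.0 FPKM in Sham rats. It rose by 1.14 ± 0.20 in RE/Ovx and 1.06 ± 0.20 in NE/Ovx rats against Sham on the log2 scale (edgeR adjusted p = 0.0146 and 0.0386). Lox, which starts the crosslinking of collagen fibrils, stood at 8.34, 19 and 16.1 FPKM in RE/Ovx rats, 9.75, 12.5 and 12.5 FPKM in NE/Ovx rats and 4.10, 4.73 and 3.52 FPKM in Sham rats, and rose by 1.74 ± 0.27 in RE/Ovx and 1.45 ± 0.26 in NE/Ovx rats against Sham (adjusted p = 0.0113 and 0.0341). Adamts2, which removes the amino propeptide of procollagen, P4ha2, a subunit of prolyl hydroxylase, and Itga10, a collagen-binding integrin of chondrocytes, also rose in both. Mmp2 and Mmp14, which cut collagen, rose for RE/Ovx against Sham (1.49 and 0.84), and Mmp8, the collagenase of neutrophils, fell by 0.85 on the log2 scale (edgeR adjusted p = 0.0229). The others that fell were Tmem38b, an ion channel of the endoplasmic reticulum, by 0.60, and Gp6, the collagen receptor of platelets, by 0.63. These genes did not pass for NE/Ovx against Sham. Their log2 fold change there was 1.31 for Mmp2, -0.54 for Mmp8 and -0.64 for Gp6. That of Mmp14 ran from 0.66 to 0.80 with single rats left out. Without single rats the number that rose was 3 to 25 for RE/Ovx and 0 to 4 for NE/Ovx against Sham. It was 3 without RE/Ovx rat 5 or rat 8, 9 without Sham rat 8 and 10 without Sham rat 7, and for NE/Ovx it was 0 without Sham rat 12, Sham rat 7, NE/Ovx rat 8 or NE/Ovx rat 9 and 3 without Sham rat 8.

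Levels of some cell type markers also differed between the groups, mostly without passing the test. Against Sham, 5.0% of all tested genes rose and 3.06% fell in RE/Ovx rats, and 1.03% rose and 0.2% fell in NE/Ovx rats. The 8 osteoblast markers summed to between 841 and 1323 FPKM in RE/Ovx rats, 771 and 1143 FPKM in NE/Ovx rats and 496 and 956 FPKM in Sham rats, so that the RE/Ovx and NE/Ovx ranges overlapped with Sham, and 1 of 8 (Bglap) rose in each comparison with Sham. The 8 chondrocyte markers found in the tables summed to between 150 and 293 FPKM in RE/Ovx rats, 165 and 219 FPKM in NE/Ovx rats and 92.7 and 104 FPKM in Sham rats, with 4 of 7 tested markers higher in RE/Ovx and 1 of 7 in NE/Ovx rats. All 7 stood higher without overlap in NE/Ovx than in Sham rats (13.9% of all tested genes). Their median log2 fold change against Sham was 1.15 for RE/Ovx and 0.97 for NE/Ovx. Both defining lists of the labelled tissue were thus detected in every group. Of 6 adipocyte markers, 6 rose in RE/Ovx and 3 in NE/Ovx rats against Sham, and their sum was 268 to 445, 189 to 289 and 51.5 to 125 FPKM in the RE/Ovx, NE/Ovx and Sham groups. Their median log2 fold change against Sham was 2.73 for RE/Ovx and 2.25 for NE/Ovx. The 6 endothelial markers summed to 74.8 to 114 FPKM in RE/Ovx rats, 80.4 to 83.6 FPKM in NE/Ovx rats and 63.1 to 70.1 FPKM in Sham rats, with 2 of 6 higher in RE/Ovx and 0 of 6 in NE/Ovx rats. Neutrophil markers summed to 2854 to 4504 FPKM in RE/Ovx rats, 3744 to 4585 FPKM in NE/Ovx rats and 4978 to 8907 FPKM in Sham rats, and 3 of 5 tested markers fell in RE/Ovx and 0 of 5 in NE/Ovx rats. The 6 B cell markers summed to 223 to 275 FPKM in RE/Ovx rats, 169 to 285 FPKM in NE/Ovx rats and 38.3 to 146 FPKM in Sham rats. All 6 stood higher without overlap in both ovariectomized groups (14.9% of all tested genes for RE/Ovx and 13.9% for NE/Ovx). Their median log2 fold change was 1.30 for RE/Ovx and 1.14 for NE/Ovx against Sham, yet 1 of 6 (Blnk) passed in RE/Ovx and 0 of 6 in NE/Ovx rats. The 6 erythroid markers summed to 17623 to 38704 FPKM in RE/Ovx rats, 26196 to 33165 FPKM in NE/Ovx rats and 35772 to 49083 FPKM in Sham rats. Against Sham 0 of 6 log2 fold changes were above 0 (48.9% of all tested genes for RE/Ovx and 50.4% for NE/Ovx), and 0 of 6 passed in either group.

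In the RE/Ovx and in the Sham group the rats had the same order in tendon and ligament markers as in Col3a1, Col12a1 and Col16a1. Col6a1, Col6a2, Col8a2 and the list of fibril-associated proteoglycans had this order too. In the NE/Ovx group, rat 8 was highest in the markers on the log2 CPM scale, while rat 9 was highest in Col12a1 and the proteoglycans. The other chains named here kept the order of the markers in that group. The share of all tested genes with these orders is not given. The 4 tendon and ligament markers summed to 38.6 to 91.2 FPKM in RE/Ovx rats, 53.4 to 63.6 FPKM in NE/Ovx rats and 27.0 to 47.5 FPKM in Sham rats. On the mean centred log2 CPM scale these 4 markers stood at -0.35, 1.17 and 0.53 in RE/Ovx rats, -0.05, 0.16 and 0.15 in NE/Ovx rats and 0.21, -0.23 and -1.59 in Sham rats, and 0 of 4 passed in any comparison. RE/Ovx rat 3, low in these markers, was on the same scale the lowest of its group in 7 of 8 fibrillar, 4 of 6 FACIT and 12 of 15 other chains. It was the highest in 6 of 7 cartilage chains (by FPKM 8, 5, 12 and 5 chains in that order). Skeletal muscle markers stood at -0.63, -0.28 and -0.95 in RE/Ovx rats, 0.60, 0.46 and 0.46 in NE/Ovx rats and 0.75, 0.60 and -0.99 in Sham rats. All 8 stood lower without overlap in RE/Ovx than in NE/Ovx rats (6.84% of all tested genes), with a median log2 fold change of -1.06. Sham rat 8 lay below every RE/Ovx rat, and 0 of 8 passed in any comparison. The 8 markers summed to 840 to 1310 FPKM in RE/Ovx rats, 2048 to 2233 FPKM in NE/Ovx rats and 762 to 2514 FPKM in Sham rats. No listed marker of these types was at 0 in every rat. The part of any cell type in the collagen differences was not tested.

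**Figure D5:**
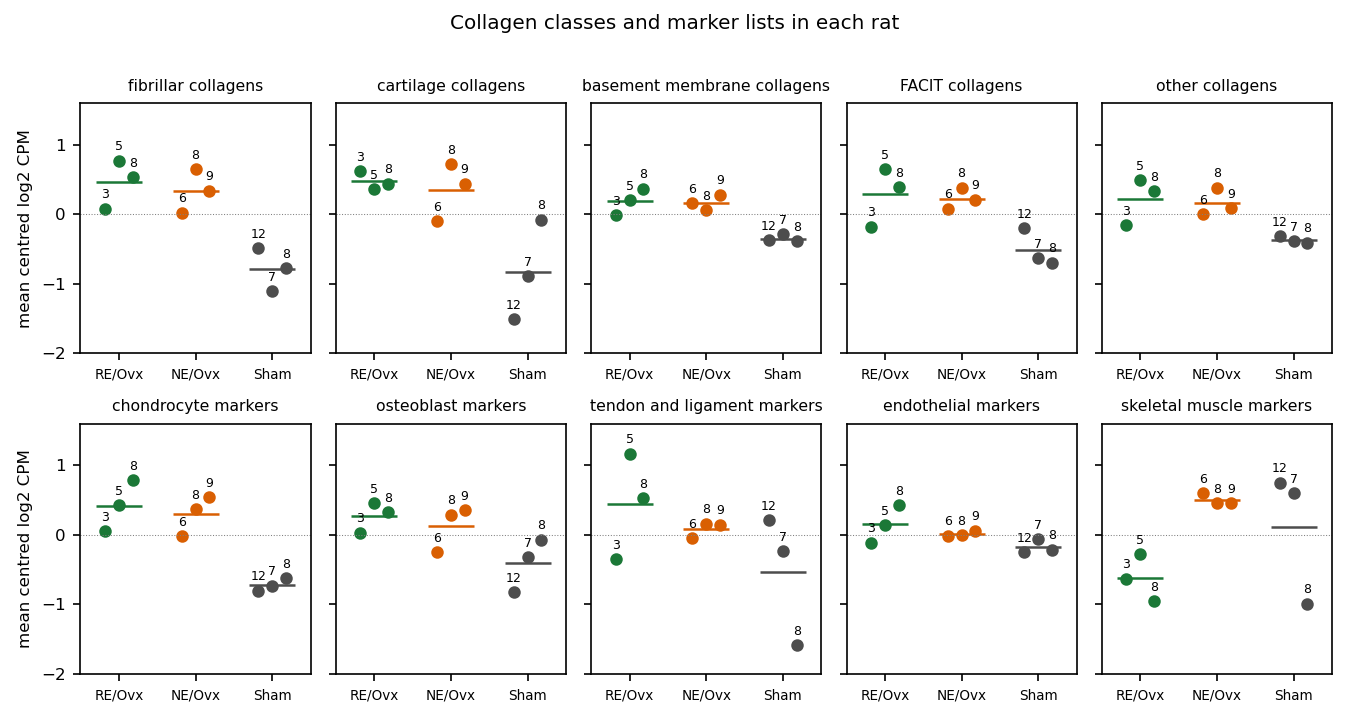
Mean centred log2 CPM of the 5 collagen classes (top row) and of 5 marker lists (bottom row) in each rat, by group from left to right RE/Ovx, NE/Ovx and Sham; each point is 1 rat with its number and the line is the group mean. The Sham rats spread from -1.51 to -0.08 for cartilage collagens and from -0.82 to -0.07 for osteoblast markers, with rat 12 lowest in both.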

How the data were processed

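RNA-seq of left tibias from 9 rats was analysed from the tables the authors deposited, which give a read count for every gene and rat in whole numbers. Reads had been aligned to Rnor_6.0, and the tools listed by the submitters are Bowtie2, DESeq, HISAT2, StringTie and Trimmomatic (versions not given). The authors also deposited FPKM values, which differ from the counts by 1 factor per library and gene length. Strand use in counting is not stated, so overlapping and near-identical genes may share reads.

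Counts were tested with edgeR 4.0.16 under R 4.3.3 (TMM factors, filterByExpr, quasi-likelihood test). The 9 libraries entered a single model with group as its term, and p values were adjusted over all 14520 tested genes. The study used DESeq2 with an unadjusted p under 0.05 and a fold change above 1.2 or below 0.83. CPM levels used a prior count of 2. Standard errors and 95% intervals are those of the fit, and the script was tested on simulated data. Chain ratios were compared by exact permutation with scipy 1.17.1.

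Collagen chains were named where they passed in a comparison, were among the 3 with the highest mean FPKM of their class or had an unadjusted p under 0.05 for RE/Ovx against NE/Ovx. Up to 3 genes of each other list were named by their p for NE/Ovx against Sham, and Col4a3, Col8a2, Col10a1, Col17a1, Tmem38b and P4ha2 were chosen after their values were seen. The members and gene lists were chosen with earlier results of these data known. Alternatives were DESeq2 1.42.0, other scalings and filters, edgeR on the 2 groups, limma 3.58.1 on log2 of FPKM plus 1 or 0.1, and each rat left out in turn.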

Additional observations from a re-analysis of the deposited data

How the results depend on the processing

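No chain fell in either comparison with Sham under any alternative, and no chain passed for RE/Ovx against NE/Ovx under any. No paired analysis was possible because the groups share only rat number 8, and the numbers name rats within a group. With DESeq2, 20 chains rose for RE/Ovx and 18 for NE/Ovx against Sham, where edgeR called 13 and 10. With each rat left out in turn the number was 7 to 22 for RE/Ovx and 1 to 12 for NE/Ovx. Over all genes, edgeR called 726 higher and 445 lower for RE/Ovx against Sham. DESeq2 called 1151 and 780, edgeR on the 2 groups 352 and 207, library totals 891 and 289, limma 246, 245 and 252 lower (log2 of FPKM plus 1, plus 0.1, and plus 1 with a minimum), and single rats left out 67 to 1205 higher and 24 to 544 lower. For NE/Ovx against Sham edgeR called 149 and 29, DESeq2 658 and 339, limma 96 higher and 16, 18 and 19 lower in the same order, and single rats left out 7 to 160 and 2 to 21. For RE/Ovx against NE/Ovx DESeq2 called 4 higher and 1 lower and edgeR on the 2 groups 1 higher, where edgeR on all rats called 0. Of the other collagen pathway genes, 19 rose and 3 fell for RE/Ovx against Sham, with 10 higher by edgeR on the 2 groups, 5 lower by DESeq2 and 3 to 25 higher and 1 to 3 lower without single rats. For NE/Ovx against Sham 5 rose, with 8 without a filter, 10 on the 2 groups, 17 (and 2 lower) by DESeq2, 2 by limma on log2 of FPKM plus 1, and 0 to 4 higher and 0 to 1 lower without single rats.

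The pseudocount of 1 lowered class medians to 0.16 (RE/Ovx against Sham) and 0.22 (NE/Ovx against Sham) for basement membrane chains and to 0.42 and 0.26 for the others, and a minimum FPKM gave 0.62 for basement membrane chains of RE/Ovx against Sham. Without single rats the medians for RE/Ovx against Sham ran from 0.52 to 1.15 for FACIT, 0.16 to 0.79 for basement membrane, 1.02 to 1.53 for fibrillar and 0.52 to 0.93 for other chains, those for NE/Ovx against Sham from 0.54 to 1.03 for FACIT and 0.32 to 0.96 for basement membrane, and those for RE/Ovx against NE/Ovx from -0.057 to 0.17 for basement membrane and -0.16 to 0.30 for other chains. The log2 difference of Col9a2 to Col9a3 was 0.126 for RE/Ovx and 0.084 for NE/Ovx against Sham with a pseudocount of 1. The sign of small differences between RE/Ovx and NE/Ovx rats turned with single rats left out, with log2 fold changes of -0.14 to 0.049 for Col11a2, -0.10 to 0.71 for Col12a1, -0.068 to 0.33 for Col13a1, -0.34 to 0.53 for Col16a1, -0.11 to 0.28 for Col18a1, -0.17 to 0.21 for Col1a1, -0.19 to 0.075 for Col22a1, -0.17 to 0.24 for Col2a1, -0.26 to 0.58 for Col3a1, -0.064 to 0.31 for Col4a1, -0.057 to 0.32 for Col4a2, -0.15 to 0.22 for Col4a4, -0.077 to 0.45 for Col5a1, -0.012 to 0.30 for Col5a2, -0.17 to 0.37 for Col6a1, -0.20 to 0.36 for Col6a2, -0.30 to 0.14 for Col6a3, -0.12 to 0.24 for Col9a2. It also turned for Col11a2 with limma (0.005, 0.006 and 0.005) and for Col4a4 with library totals (0.014) and limma (0.023, 0.041 and 0.023). For Col6a5 in RE/Ovx against Sham it turned with library totals (0.010), limma (0.036, 0.060 and 0.036) and single rats left out (-0.33 to 0.10). The causes were not tested.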
